A study of Mus musculus with 37 samples.

Results

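Macrophages of fat are tissue-resident and recruited phagocytes that clear dying cells, take up lipid and iron and make cytokines, and their number in white fat is known to rise with obesity. Brown adipose tissue (BAT), the fat depot that produces heat through the uncoupling protein of its mitochondria, holds macrophages among its adipocytes, vessels and nerves. Growth and survival of these cells depend on signals through the colony stimulating factor 1 receptor, and leptin, the satiety hormone encoded by *Lep*, is made by adipocytes and mainly by those of white fat.

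The data described here are the transcript levels of 9 macrophage genes, picked by name, among 24657 gene symbols on the arrays. *Emr1* encodes an adhesion receptor on the surface of mature mouse macrophages (current symbol *Adgre1*), *Cd68* a glycoprotein of macrophage lysosomes, and *Csf1r* the receptor for colony stimulating factor 1. *Itgam* and *Itgax* encode the integrin chains CD11b and CD11c, *Mrc1* the mannose receptor CD206, *Cd163* the scavenger receptor for haemoglobin bound to haptoglobin, *Ccr2* the chemokine receptor of recruited monocytes and *Trem2* a lipid-sensing receptor of macrophages and microglia. Each of the 9 genes and *Lep* had 1 probe set on the array.

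BAT was taken from 35 BXD strains, which are recombinant inbred lines bred from C57BL/6J and DBA/2J, and from these 2 parents. All mice were males kept on chow (Harlan 2018) to 29 weeks of age per the labels, fasted overnight, and the labels name no engineered allele or drug. RNA of about 5 mice per strain was pooled before hybridisation, so each strain is 1 array, the spread within a strain is not measured, and strain and array effects cannot be told apart. Values are in rescaled array units (the values of each array have mean 8 and SD 2), and fold values below are nominal, since they assume a spread of 2 log2 units before rescaling. In such bulk samples, fewer macrophages and less RNA per macrophage cannot be told apart.

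The tissue label was met by its markers, with 11 of 12 brown fat genes above background and *Ucp1* at 15.37 ± 0.23 (SD, n = 35). Other tissue was present to unequal degrees. The mean of 13 skeletal muscle genes ran from 9.74 to 13.41 between strains, and the mean of 9 liver genes was 11.92 in BXD70 and 10.09 in DBA/2J against a median of 6.99. Of markers of other leukocytes, 0 of 10 neutrophil genes, 1 of 10 B and T lymphocyte genes, 1 of 5 natural killer cell genes, 0 of 4 eosinophil genes, 4 of 8 dendritic cell genes and 3 of 7 mast cell genes had means above background, and 19 of 20 further macrophage genes did. Background was taken as the 95th percentile of 1128 olfactory receptor probe sets, at 7.94 units, and 47.2% of all probe sets had means above it.

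Stretches of the start regions are given for 4 of the genes and for *Lep*, since the genes below moved together across strains. They are the 250 bases before the annotated start, from RefSeq on GRCm38.p6 and written 5′ to 3′ along the gene, and 7 of the 9 genes had an entry. Capitals mark matches on either strand to the core of the site for PU.1, the transcription factor of myeloid cells (GAGGAA, which reads TTCCTC on the other strand), to the AP-1 site (TGAGTCA), or to the palindromic C/EBP site (TTGCGCAA). *Cd68* and *Trem2* are shown as the pair with the highest correlation, *Mrc1* as the gene closest to the resident macrophage genes, and *Cd163* as the gene that moved least with the others.
Cd68 (chr11:69666171-69666420, minus strand): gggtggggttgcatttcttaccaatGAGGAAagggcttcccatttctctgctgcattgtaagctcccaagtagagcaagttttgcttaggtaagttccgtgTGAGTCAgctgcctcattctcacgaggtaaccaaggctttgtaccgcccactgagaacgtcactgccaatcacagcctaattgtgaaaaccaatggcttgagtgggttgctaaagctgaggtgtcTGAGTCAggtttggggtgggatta
Trem2 (chr17:48346151-48346400, plus strand): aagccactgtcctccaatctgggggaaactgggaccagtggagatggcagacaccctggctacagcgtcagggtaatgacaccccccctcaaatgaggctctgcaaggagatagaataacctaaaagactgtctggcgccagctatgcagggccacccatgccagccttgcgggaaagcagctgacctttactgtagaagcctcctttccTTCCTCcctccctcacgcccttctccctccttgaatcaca
Mrc1 (chr2:14229164-14229413, plus strand): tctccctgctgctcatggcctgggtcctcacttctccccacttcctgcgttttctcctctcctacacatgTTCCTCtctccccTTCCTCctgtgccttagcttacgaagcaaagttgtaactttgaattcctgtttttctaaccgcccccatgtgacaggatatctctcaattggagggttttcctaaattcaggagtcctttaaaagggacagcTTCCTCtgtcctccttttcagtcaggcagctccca
Cd163 (chr6:124304401-124304650, plus strand): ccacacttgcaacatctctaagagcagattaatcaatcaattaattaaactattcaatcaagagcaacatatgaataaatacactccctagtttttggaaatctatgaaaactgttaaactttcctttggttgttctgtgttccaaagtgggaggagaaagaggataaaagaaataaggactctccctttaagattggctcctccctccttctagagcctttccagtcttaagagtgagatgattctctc
Lep (chr6:29059971-29060220, plus strand): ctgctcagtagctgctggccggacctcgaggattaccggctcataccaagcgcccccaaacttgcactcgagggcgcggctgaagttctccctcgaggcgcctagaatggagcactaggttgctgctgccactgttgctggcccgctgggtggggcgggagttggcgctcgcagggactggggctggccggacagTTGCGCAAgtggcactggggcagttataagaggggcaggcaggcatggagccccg
The PU.1 core occurred in 4 of the 7 macrophage genes, at 225 bases before the start in *Cd68*, 40 in *Trem2*, 84 and 15 in *Itgam*, and 180, 167 and 35 in *Mrc1*. Over 32851 promoters of the same length, 23.3% held this core. AP-1 sites stood at 149 and 24 bases before the start of *Cd68* and at 56 in *Itgax*, and 4.46% of all promoters had one. *Lep* held the C/EBP site at 55 bases before its start, a match found in 0.164% of promoters, and no searched letters occurred in *Cd163* or *Ccr2*. These matches are a description of letters and not of binding.

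Across the 35 BXD strains, 6 of the 9 genes had means above background (*Emr1*, *Cd68*, *Csf1r*, *Itgam*, *Mrc1* and *Trem2*), as did 47.2% of all probe sets. The other three had means below the limit but were above it in some strains, *Itgax* in 13, *Cd163* in 10 and *Ccr2* in 7 of 35. All 9 spanned more than 1 unit between the lowest and highest strain, as did 40.7% of all probe sets, and the median of their ranges was 1.84 units (nominally 3.58-fold), against 0.83 units (1.77-fold) over the 19436 probe sets above background.

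*Emr1* had the widest range of the 9, from 8.18 in BXD87 through a median of 9.23 to 10.95 in BXD61, with a mean of 9.24 ± 0.48 (SD, n = 35). BXD61 stood apart, as the next strain, BXD80, was at 9.93. *Cd68* ran from 9.32 in BXD87 through 10.17 to 11.90 in BXD61, with BXD69 next at 11.50. The lysosomal marker thus spanned 2.58 units (nominally 5.98-fold), and its mean was 10.21 ± 0.58 (SD, n = 35).

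For *Csf1r* the lowest strain was BXD48 at 9.22, the median was 9.94 and the highest was again BXD61 at 10.89, a range of 1.67 units around a mean of 9.93 ± 0.33 (SD, n = 35). BXD48 was lowest in *Mrc1* and *Itgam* as well. *Mrc1* lay at 9.18 there, at 10.08 in the median and at 11.05 in BXD61, and *Itgam* at 7.76, 8.28 (median) and 9.23, with means of 10.01 ± 0.38 and 8.27 ± 0.30 (SD, n = 35 each). The 3 genes therefore shared both ends of their distribution.

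*Trem2* had a long upper tail, with a lowest value of 8.51 in BXD51, a median of 8.97 and 10.35 in BXD61, and BXD69 close behind at 10.15 (mean 9.10 ± 0.45, SD, n = 35). *Itgax* ran from 6.79 in BXD99 through 7.68 to 9.11 in BXD61, around a mean of 7.75 ± 0.52 (SD, n = 35), so that its lower strains were within the background. *Cd163* and *Ccr2* were the genes not led by BXD61. *Cd163* was lowest in BXD49 (6.92), had a median of 7.80 and was highest in BXD79 (8.33), and *Ccr2* went from 7.11 in BXD43 through 7.73 to 8.14 in BXD97, with means of 7.78 ± 0.30 and 7.73 ± 0.24 (SD, n = 35 each). Most of the range of these 2 genes lay below the background limit.

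**Figure D1:**
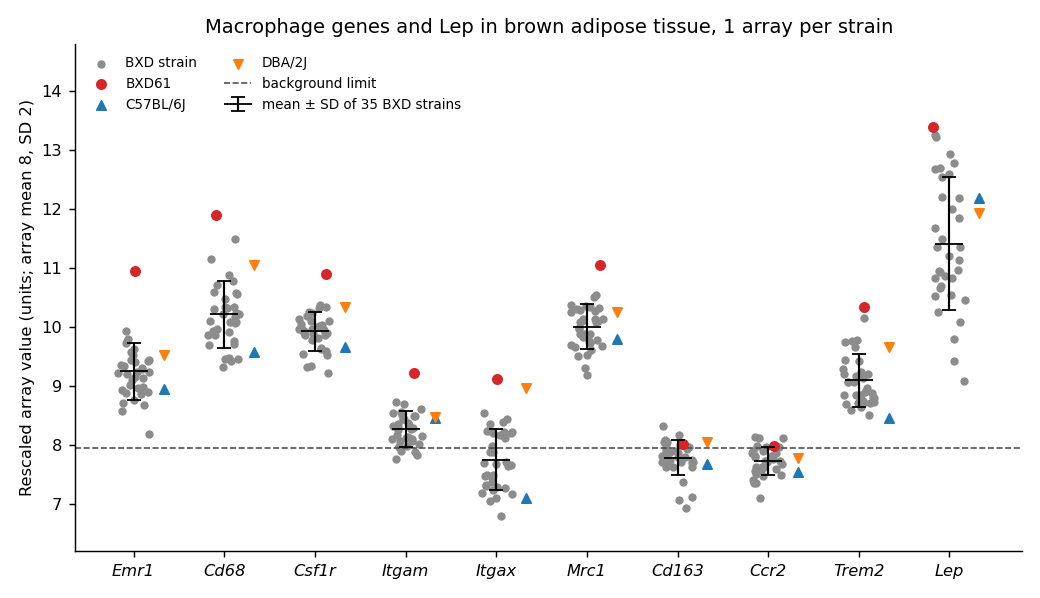
Rescaled array value (y axis) of the 9 macrophage genes and *Lep* (x axis) in 35 BXD strains (grey points, BXD61 in red), with the mean ± SD over strains in black, the parents as triangles and the background limit of 7.94 units dashed. BXD61 is the highest point in 7 of the 9 macrophage genes and in *Lep*, and *Itgax*, *Cd163* and *Ccr2* straddle the limit.

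Most of the 9 genes were high or low in the same strains. When each gene was standardized over strains, BXD61 averaged 2.51 SDs above the mean and was the highest strain in 7 of 9 genes. BXD69 followed at 1.27, BXD97 at 1.08 and BXD92 at 1.06. BXD61 stood apart from the rest of the panel, and both BXD92 and BXD97 were above the median in all 9 genes. At the other end, BXD48 averaged −1.47 and was among the 5 lowest strains in 7 genes, BXD87 averaged −1.18 and BXD43 −1.01, each among the 5 lowest in 6 genes.

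BXD61 was also the highest strain in the mean of the 20 further macrophage genes (9.92 against a median of 8.97), with 13 of the 20 at their highest there, and in the means of the mast cell list (8.34 against 7.54), the white fat list (9.97 against 9.46) and *Lep*. Neutrophil genes averaged 7.12 in BXD61, highest of the 35 strains but below background. It was 3rd in the dendritic cell list (8.50 against a median of 8.32) and in endothelium (11.54 against 11.34), 11th in the B and T lymphocyte list, 8th in skeletal muscle, 15th in brown fat and 21st in liver. Whether these other cell types had a part in the high values of BXD61 was not tested.

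**Figure D2:**
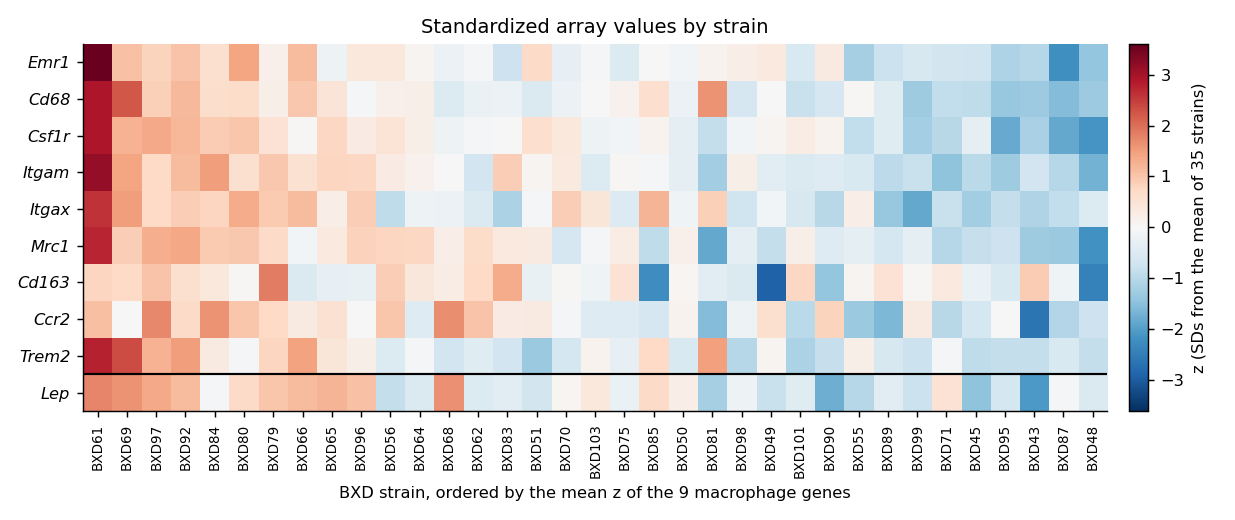
Standardized value (colour, in SDs from the mean of 35 strains) of each macrophage gene and *Lep* (rows) in each BXD strain (columns, ordered by the mean of the 9 genes). BXD61 at the left is dark red in every macrophage row but *Cd163* and *Ccr2*, BXD48 at the right is blue throughout, and *Cd163* breaks the order in BXD85 and BXD49.

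All 36 pairs of the 9 genes had a positive Pearson's r over the 35 BXD strains, with a median of 0.62 and a range from 0.029 to 0.904. A pair was called when limma, fitted with each gene of the pair as the covariate across 41154 other probe sets, gave an adjusted p under 0.05 both ways, and 21 of the 36 pairs were called. Permutation p-values below are two-sided from 100000 permutations, and 1e-05 is the smallest they can give. Both genes of a pair were read on the same arrays.

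The tightest pair was *Cd68* with *Trem2*, at r = 0.904 and rho = 0.878 (n = 35, permutation p = 1e-05 for each, limma adjusted p = 2.36e-10). *Itgax* went with both, at r = 0.838 to *Cd68* and 0.814 to *Trem2*. These 3 genes encode a lysosomal protein, a lipid receptor and an integrin that recruited and lipid-laden macrophages of fat are known to carry. Without BXD61 the *Cd68* and *Trem2* pair kept r = 0.874, and without BXD61 and BXD69, the strains farthest from the median of *Cd68*, r = 0.837.

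A further close set was *Csf1r*, *Itgam*, *Mrc1* and *Emr1*. *Csf1r* correlated with *Itgam* at r = 0.893 (rho = 0.873), with *Emr1* at 0.875 (rho = 0.816) and with *Mrc1* at 0.858 (rho = 0.812), each at a permutation p of 1e-05 (n = 35). *Itgam* and *Mrc1* were at r = 0.852. *Emr1* joined the 2 sets, with r = 0.815 to *Cd68* and 0.730 to *Itgax*.

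Pairs across the sets ranged widely, and some rested on few strains. *Cd68* was at r = 0.778 to *Csf1r* and 0.747 to *Itgam*, as high as pairs within the second set such as *Emr1* with *Mrc1* (0.742). *Mrc1* was at r = 0.464 to *Trem2* (n = 35, permutation p = 0.0048, limma adjusted p = 0.0971) and at 0.502 to *Itgax* (adjusted p = 0.0583), so neither pair was called. *Csf1r* and *Trem2* were called at r = 0.587 (adjusted p = 0.0134), and r fell to 0.453 without BXD61. Leaving out BXD61 ended the call for 4 pairs, which were *Cd68* with *Mrc1* and *Trem2* with *Csf1r*, *Emr1* and *Itgam*, and 17 pairs stayed called. That the 2 sets differ from each other was not tested.

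*Cd163* and *Ccr2* were each called with *Mrc1* only, out of 8 partners each. *Cd163* had r = 0.556 to *Mrc1* (rho = 0.557, n = 35, permutation p = 0.00051, limma adjusted p = 0.0424), and its r to the other 7 genes ran from 0.029 to 0.384. *Ccr2* had r = 0.671 to *Mrc1* (adjusted p = 0.0202) and lower values to *Cd68* (0.348), *Itgax* (0.326) and *Trem2* (0.229). Its r to *Csf1r* was 0.601, to *Itgam* 0.585 and to *Emr1* 0.574. In the limma fit on *Ccr2* these had adjusted p of 0.0572, 0.0782 and 0.0801, so the pairs missed the call. In the limma fits on *Csf1r*, *Itgam* and *Emr1* the adjusted p of *Ccr2* was under the threshold, at 0.0115, 0.0145 and 0.0193. Both calls with *Mrc1* were near the threshold, and each was lost under several of the alternatives listed at the end.

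*Cd163* also followed skeletal muscle RNA, which differed between the arrays. Its r to the mean of the 13 muscle genes was 0.551 and rho was 0.644 (n = 35, permutation p = 0.00097, Benjamini-Hochberg p = 0.00243 over 5 such relations), and r was 0.632 without BXD48 and BXD49. In the limma fit on *Cd163*, 5 of 13 muscle genes were called, among them the myosin heavy chain *Myh1* (r = 0.658, adjusted p = 0.0132), and without BXD61 only *Myh1* was called. With the muscle list as a covariate the pair of *Cd163* and *Mrc1* was not called.

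The background of these counts was low. With *Emr1* as the covariate 7 of the 8 other genes were called with a positive slope, against 1.69% of all probe sets. The counts were 6 of 8 for *Cd68* (1.65% of all), 7 for *Csf1r* (1.6%), 7 for *Itgam* (1.79%), 6 for *Itgax* (2.13%), 6 for *Mrc1* (1.57%) and 5 for *Trem2* (1.6%). For *Cd163* 1 of 8 was called against 0.795% of all, and for *Ccr2* 1 of 8 against 0.0607%. None of the 9 genes had a negative slope in any of these fits.

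**Figure D3:**
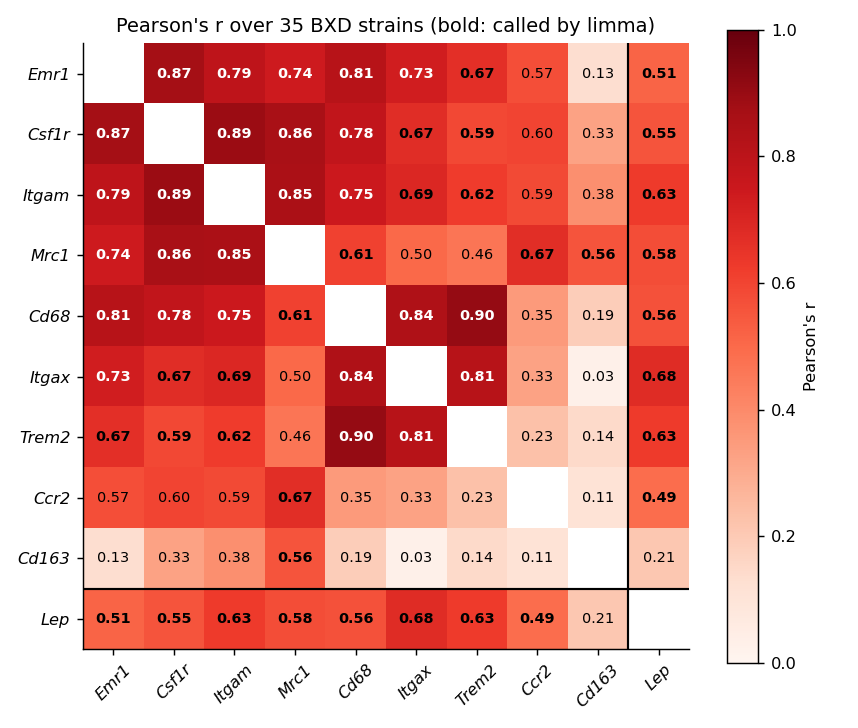
Pearson's r over 35 BXD strains (colour and number) for every pair of the 9 macrophage genes and for each gene with *Lep*, with called values in bold. *Cd68*, *Itgax* and *Trem2* are dark among themselves, as are *Emr1*, *Csf1r*, *Itgam* and *Mrc1*. *Cd68* is also dark at *Emr1* (0.81), *Csf1r* (0.78) and *Itgam* (0.75), and the *Cd163* row is pale except at *Mrc1*.

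The genes most like each of the 9, among 13517 named genes above background, were ranked by Pearson's r over the 35 strains. For *Cd68* they were *Slc11a1*, the phagosomal metal transporter, at r = 0.938, *Soat1*, which esterifies cholesterol, at 0.931, and *Anpep* at 0.915. *Soat1* was also first for *Trem2* at 0.884, followed by *Apobec1* at 0.872 and *Anpep* at 0.854. For *Itgax* the closest were *Lgals3* (galectin 3) at 0.894, the protease *Ctss* at 0.876 and *Clec7a* (the receptor dectin 1) at 0.866.

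Genes nearest to *Mrc1* were *Pf4* at r = 0.908, *F13a1* (coagulation factor XIII A chain) at 0.885 and the chemokine *Ccl6* at 0.867, and those nearest to *Itgam* were the chemokines *Ccl9* at 0.922 and *Ccl6* at 0.902 and then *Pf4* at 0.892. *Csf1r* was closest to *Alox5ap*, of leukotriene synthesis, at 0.888, *Pld4* at 0.884 and the Fc receptor chain *Fcer1g* at 0.866. *Fcer1g* led for *Emr1* at 0.900, ahead of *Nckap1l* at 0.885 and the complement receptor *C3ar1* at 0.883.

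*Ccr2* and *Cd163* had lower best matches. *Ccr2* was nearest to *Retnla* (0.707), *Il13ra1* (0.701) and *Lsp1* (0.689). For *Cd163* the nearest were *Pcolce2* (0.755) and *Sema3c* (0.733), both encoding secreted proteins, and the muscle cofilin *Cfl2* (0.705).

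Lists of genes by cell type or role were then counted in the same fits. Of 20 further macrophage genes, 16 were called with *Csf1r*, among them *Fcer1g* (r = 0.866), the lysozyme gene *Lyz2* (r = 0.823), the signalling adaptor *Tyrobp* (r = 0.807) and the oxidase subunit *Cybb* (r = 0.792). The median r of the 20 was 0.70, against −0.0063 over all probe sets, and 16 were called without BXD61 as well. All 3 subunits of complement C1q, which macrophages make, were called with *Csf1r*, with *C1qb* at r = 0.837. In the same fit 0 of 8 dendritic cell, 0 of 10 neutrophil, 0 of 10 B and T lymphocyte and 0 of 5 natural killer cell genes were called, and 1 of 7 mast cell genes (*Cma1*, r = 0.637), 1 of 7 endothelial genes (*Pecam1*, 0.544) and 2 of 9 white fat genes (*Sncg*, 0.559, and *Npr3*, 0.543) were. Without BXD61 none of these 4 genes was called with *Csf1r*. *Cma1*, at a mean of 7.42, was below background. Of the lists with no call in the *Csf1r* fit the dendritic cell list had 4 of 8 genes above background and the others at most 1. Other fits kept such calls without BXD61. *Itgax* had 4 of 9 white fat and 2 of 7 endothelial genes called, and 3 (*Sncg*, *Npr3* and *Nnmt*) and 2 (*Pecam1* and *Cdh5*) without that strain. *Sncg* also stayed called with *Trem2* and *Itgam*, and *Pecam1* with *Trem2* and *Cd68*.

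Of the genes that feed or follow the *Csf1r* receptor, 4 of 8 were called with *Csf1r*. The transcription factor PU.1 (listed as *Sfpi1*) was at r = 0.760 and *Irf8* at 0.644, and both ligands of the receptor were called, *Il34* at r = 0.730 (adjusted p = 0.000332) and *Csf1* at 0.598 (adjusted p = 0.0105). Without BXD61 *Csf1* was not called. The ligands are also made by cells other than macrophages. Of 9 genes for signalling and ligands of *Trem2*, 4 were called with *Trem2*, which were its adaptor *Tyrobp* (r = 0.806), the kinase *Syk* (0.570), the phospholipase *Plcg2* (0.544) and the phosphatase *Inpp5d* (0.527). Without BXD61 that count fell to 1.

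Genes of resident and of lipid-associated macrophages were called at different rates with *Mrc1* and with *Trem2*. With *Mrc1*, 10 of 15 resident genes were called, led by *Pf4* (r = 0.908), *F13a1* (0.885), the folate receptor *Folr2* (0.839) and the hyaluronan receptor *Lyve1* (0.797), and 1 of 13 lipid-associated genes, the tetraspanin *Cd9* (0.551). With *Trem2*, 7 of 13 lipid-associated genes were called, led by the proton pump subunit *Atp6v0d2* (r = 0.907), the elastase *Mmp12* (0.841), *Lgals3* (0.836) and *Cd9* (0.749), and 3 of 15 resident genes, *Stab1* (0.779), *Pf4* (0.636) and *Gas6* (0.591). The mean of *Atp6v0d2* was 6.77 units, below background. Of the 15 resident genes 10 had means above background, and these were the 10 called with *Mrc1*. Of the 13 lipid-associated genes 11 did. The 6 lipid-associated genes not called with *Trem2* had means of 10.53 to 15.13 units. *Cd68* and *Itgax* were like *Trem2* in this count, with 7 of 13 lipid-associated genes each and with 3 and 2 of 15 resident genes. The split was less clear for other genes. *Itgam* had 8 of 15 resident and 6 of 13 lipid-associated genes called, *Csf1r* 8 of 15 and 4 of 13, and *Emr1* 4 of 15 and 4 of 13. No test of the difference between these rates was run.

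Without BXD61 *Mrc1* had 9 of 15 resident and 0 of 13 lipid-associated genes called, and *Trem2* had 1 of 15 (*Stab1*) and 6 of 13. *Itgax* then had 1 of 15 and 6 of 13, and *Cd68* 3 of 15 and 5 of 13. *Itgam* had 8 of 15 and 2 of 13 without that strain, *Csf1r* 7 of 15 and 2 of 13, and *Emr1* 3 of 15 and 4 of 13. Some further counts leaned on that strain more. With *Mrc1* the further macrophage genes called went from 12 of 20 to 2 of 20 without BXD61, and mast cell genes from 4 of 7 to 1 of 7. With *Trem2* the other macrophage genes of the 9 went from 5 of 8 to 2 of 8, and *Cd9* and *Gas6* are made by other cells of fat too.

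In the *Trem2* fit 2 of 12 brown fat genes were called with a negative slope, against 0.901% of all probe sets. The lipid droplet gene *Cidea* was at r = −0.665 (adjusted p = 0.0134). The fatty acid elongase *Elovl3* was at r = −0.530 (adjusted p = 0.0323). *Ucp1* was at r = 0.073 (adjusted p = 0.916). Without BXD61 1 of the 12 was called, *Elovl3*. The *Itgam* fit had 1 such call, *Cidea* (r = −0.580, adjusted p = 0.0483, against 0.739% of all probe sets), which was not called without BXD61. In the fits of the other 7 genes no brown fat gene was called over the 35 strains. The median r to the 12 brown fat genes was negative for each of the 9 genes, from −0.083 for *Trem2* to −0.312 for *Mrc1*.

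**Figure D4:**
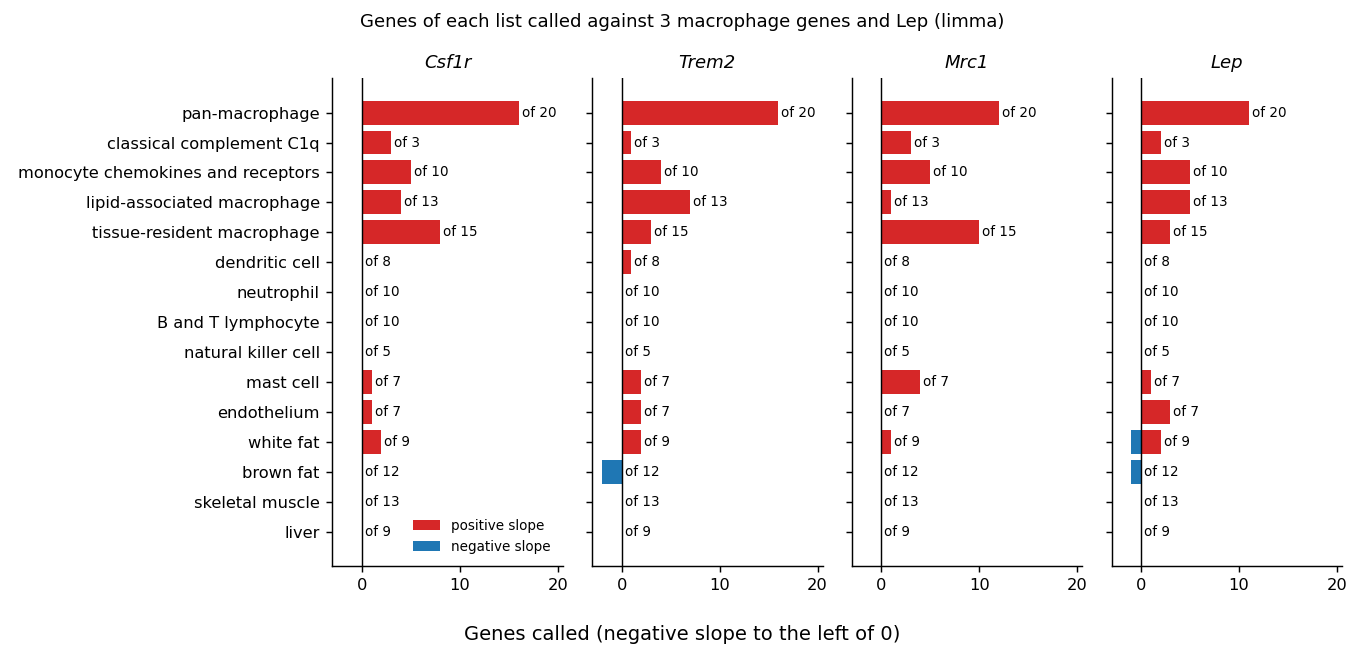
Number of genes of each list (rows, list size printed) called by limma with *Csf1r*, *Trem2*, *Mrc1* or *Lep* as the covariate (panels), with positive slopes to the right of 0 and negative slopes to the left. The *Mrc1* panel has 10 of 15 resident and 1 of 13 lipid-associated genes, the *Trem2* panel 3 of 15 and 7 of 13.

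*Lep* was measured on the same arrays and ran from 9.08 in BXD43 through a median of 11.20 to 13.38 in BXD61, a range of 4.30 units (nominally 19.7-fold) around a mean of 11.41 ± 1.12 (SD, n = 35). BXD61, BXD68 (13.25) and BXD69 (13.22) were the 3 highest strains. BXD61 and BXD69 were also the first and second strain in the mean of the 9 macrophage genes, and BXD68 was 13th. The strain lowest in *Lep*, BXD43, was 33rd of 35 in that mean.

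Of the 9 macrophage genes, 8 rose with *Lep* across the 35 strains in the limma fit at adjusted p under 0.05, all but *Cd163*. In that fit 2.38% of 41154 probe sets were called with a positive slope and 2.5% with a negative one. The median r of the 9 genes to *Lep* was 0.563, against 0.0048 over all probe sets.

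*Itgax* had the highest correlation with *Lep*, at r = 0.680 and rho = 0.639 (n = 35, permutation p = 2e-05 and 5e-05), and rose by 0.316 ± 0.057 units per unit of *Lep* (SE, limma adjusted p = 0.000534). *Itgam* followed at r = 0.628 and rho = 0.617 (permutation p = 1e-05 and 0.00011, slope 0.169 ± 0.036, adjusted p = 0.0031), and *Trem2* at r = 0.627 and rho = 0.569 (permutation p = 6e-05 and 0.00045, slope 0.250 ± 0.052, adjusted p = 0.00263). These 3 kept r of 0.620, 0.577 and 0.565 without BXD61 and BXD43, the 2 strains farthest from the median of *Lep*, and they alone were still called without both strains.

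*Mrc1* and *Cd68* were intermediate. *Mrc1* had r = 0.576 and rho = 0.531 (permutation p = 0.00029 and 0.0012, slope 0.195 ± 0.047, adjusted p = 0.00926), and *Cd68* r = 0.563 and rho = 0.508 (permutation p = 0.00043 and 0.0022, slope 0.288 ± 0.071, adjusted p = 0.0113). *Csf1r* had r = 0.555 and rho = 0.510 (permutation p = 0.00045 and 0.002, slope 0.164 ± 0.042, adjusted p = 0.0147), and *Emr1* r = 0.515 and rho = 0.443 (permutation p = 0.0012 and 0.0083, slope 0.220 ± 0.061, adjusted p = 0.0281). Without BXD61 and BXD43 their r values were 0.472, 0.450, 0.449 and 0.396, and the calls of these 4 genes rested on those strains, as none was called without both. Without BXD61 alone *Mrc1* was called and *Cd68*, *Csf1r* and *Emr1* were not, and without BXD69 *Emr1* was not called.

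*Ccr2* was called at the threshold, with r = 0.491 and rho = 0.408 (permutation p = 0.0026 and 0.015) and an adjusted p of 0.0496, and it lost the call under 34 of 47 alternative settings. *Cd163* had r = 0.211 and rho = 0.200 (n = 35, permutation p = 0.23 and 0.25) and a slope of 0.056 ± 0.044 (SE), with an adjusted p of 0.586. The order of the slopes is an order of array units and not of fold change per macrophage.

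**Figure D5:**
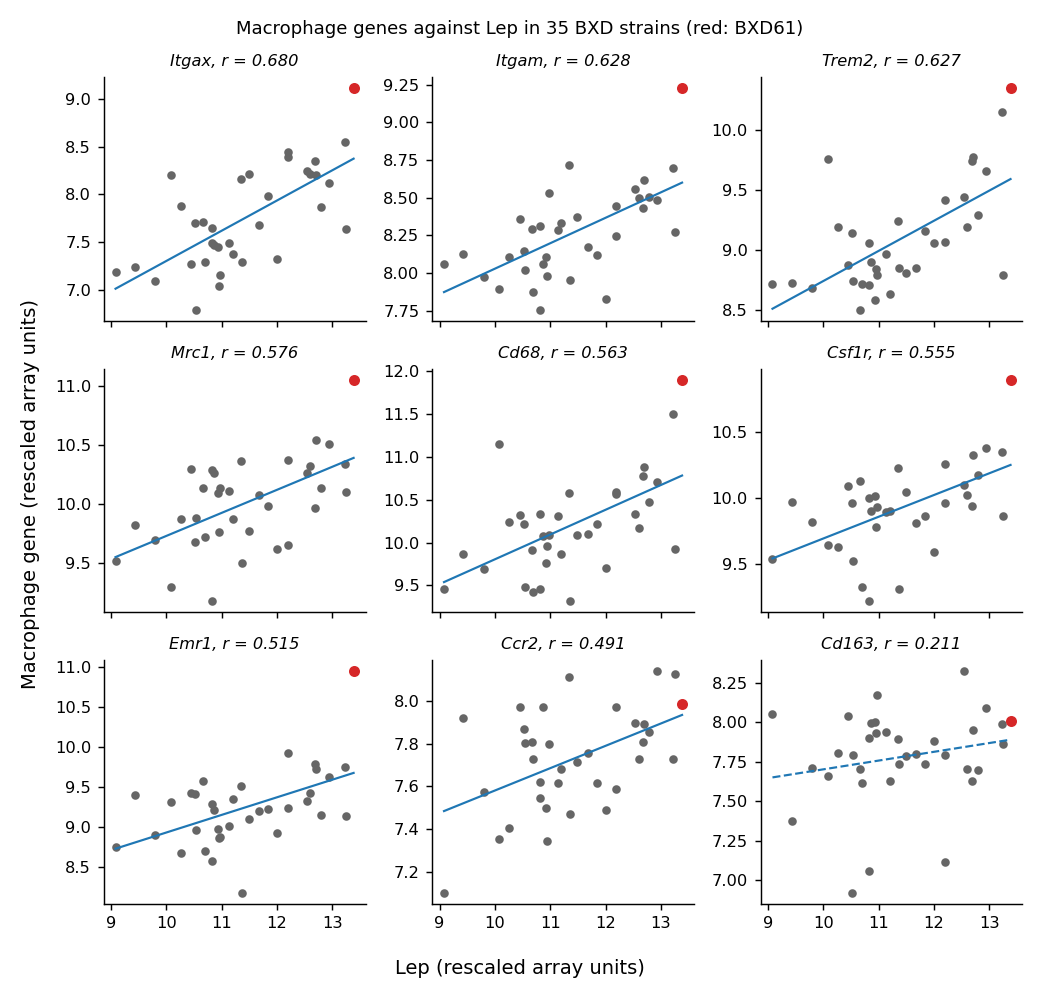
Each macrophage gene (y axis, rescaled array units) against *Lep* (x axis, rescaled array units) in 35 BXD strains, with BXD61 in red and the least-squares line, dashed where limma did not call the slope. Panels are ordered by r, from 0.680 for *Itgax* to 0.211 for *Cd163*, and BXD61 is at the upper right in all panels but *Cd163* and *Ccr2*.

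The mean of the white fat markers moved with *Lep* on these arrays, though most of the genes in it were not called. The mean of 9 white fat genes correlated with *Lep* at r = 0.605 and rho = 0.566 (n = 35, permutation p = 0.0001, Benjamini-Hochberg p = 0.0005 over 5 such relations), and was highest in BXD61 and lowest in BXD43, as *Lep* was. In the *Lep* fit 2 of the 9 rose, the natriuretic peptide clearance receptor *Npr3* (r = 0.924) and *Sncg* (r = 0.833), and 1, *Retn*, which encodes resistin, fell (r = −0.568, adjusted p = 0.00993). *Npr3* was the closest of all named genes above background to *Lep*. The other 6 white fat genes were not called, among them the homeobox genes *Hoxc8* (r = 0.249) and *Hoxc9* (r = 0.111). The median r of the 9 genes to *Lep* was 0.249. Of these 9, 5 had means above background, among them *Npr3*, *Sncg* and *Retn*, while *Hoxc9*, at a mean of 7.37, was below it.

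The white fat list mean had r = 0.605 to *Lep* and held *Npr3* (r = 0.924), so as a covariate it overlapped with *Lep*. With the white fat list mean as a further covariate, 0 of the 9 macrophage genes were called with *Lep*, with 8 of them still at an unadjusted p under 0.05 in limma. Their slopes stayed positive, at 0.232 ± 0.069 (SE) for *Itgax* (adjusted p = 0.0747) and 0.225 ± 0.066 for *Trem2* (adjusted p = 0.0709). With *Csf1r* itself as the further covariate 0 of the other 8 were called, with 2 at an unadjusted p under 0.05, *Itgax* (slope 0.206 ± 0.061, adjusted p = 0.105) and *Trem2* (0.174 ± 0.059, adjusted p = 0.183). The slope of *Emr1* on *Lep* was then 0.018 ± 0.043. With the B and T lymphocyte list as covariate 6 of 9 were called, with the skeletal muscle list 7 and with the brown fat list 6. *Lep* had r = 0.211 to the lymphocyte list mean, 0.159 to the muscle list and −0.288 to the brown fat list (permutation p = 0.23, 0.36 and 0.095, n = 35).

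Other macrophage genes followed *Lep* in part. Of the 20 further macrophage genes, 11 were called with *Lep*, led by *Fcer1g* (r = 0.628), *Ctss* (0.614), the integrin chain *Itgb2* (0.610) and *Cybb* (0.599). Of 10 monocyte chemokines and receptors 5 were called, with the monocyte attractant *Ccl2* at r = 0.828 (adjusted p = 7.93e-07) and *Ccl7* at 0.721, both higher than any of the 9 genes. Both ligands of *Csf1r* were called too, *Csf1* at r = 0.634 (adjusted p = 0.00267) and *Il34* at 0.522 (adjusted p = 0.0345), the latter not without BXD61.

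Of 13 lipid-associated genes 5 were called with *Lep*, led by *Lgals3* (r = 0.686) and *Mmp12* (0.623), and of 15 resident genes 3, *Stab1* (0.686), *Pf4* (0.650) and *Gas6* (0.643). Of 12 inflammatory cytokine genes 1, *Ccl3*, was called. Only 4 of the 12 had means above background, and *Ccl3*, at a mean of 7.85, was not among them. Endothelial genes were called at 3 of 7, *Pecam1* (r = 0.670), *Vwf* (0.638) and *Cdh5* (0.633). The mast cell protease *Mcpt4* was called as 1 of 7 mast cell genes (r = 0.483, adjusted p = 0.0461) but not without BXD61. Its mean of 7.71 was below background. The brown fat gene *Cidea* fell with *Lep* as 1 of 12 (r = −0.628, adjusted p = 0.0146). Without BXD61 *Cidea* was not called and *Elovl3* was. No dendritic cell, neutrophil, lymphocyte, natural killer cell or skeletal muscle gene was called. Without BXD61 the counts were 8 of 20 further macrophage genes, 4 of 10 chemokine genes, 3 of 13 lipid-associated genes, 3 of 15 resident genes and 3 of 7 endothelial genes.

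Between the parents, all 9 macrophage genes were higher in DBA/2J than in C57BL/6J, as were 51.8% of all probe sets. The median difference of the 9 was 0.56 units, against 0.012 over all probe sets. With 1 array per parent there is no test of these differences.

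The largest differences were in the *Cd68*, *Itgax* and *Trem2* set. *Itgax* was at 8.97 in DBA/2J and 7.10 in C57BL/6J, a difference of 1.87 units, *Cd68* at 11.05 and 9.57, and *Trem2* at 9.66 and 8.46. These were the 3 of 9 past 0.77 units, the 95th percentile of the absolute difference over all probe sets, where 2.18% of all probe sets were past it in this direction. For *Trem2* no BXD strain was as low as C57BL/6J, and for *Itgax* 31 of 35 BXD strains lay between the parents.

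*Csf1r* differed by 0.68 units (10.33 against 9.66), *Emr1* by 0.56, *Mrc1* by 0.45, *Cd163* by 0.37 and *Ccr2* by 0.24. *Itgam* was nearly equal, at 8.48 in DBA/2J and 8.46 in C57BL/6J. *Lep* went the other way, at 11.94 in DBA/2J and 12.18 in C57BL/6J. The liver genes noted above were higher on the DBA/2J array, and their part in the parental differences was not tested. In BXD70, the BXD strain with the highest liver genes, the mean of the 9 genes was 8.88 against a strain median of 8.86. *Cd68* was at 10.09 there (median 10.17) and *Trem2* at 8.81 (median 8.97), while *Itgax*, at 8.21, was above its median of 7.68. With parents included as 2 further strains, 7 of the 9 genes were called with *Lep*, all but *Cd163* and *Ccr2*.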

How the data were processed

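RNA of BAT from 37 strains (35 BXD and 2 parents) was measured on Affymetrix MoGene 2.0 arrays, 1 per strain. The authors deposited 1 table of scores, made with Affymetrix Expression Console per the submitters' processing notes, in which the authors had brought every array to mean 8 and SD 2. The summary method, log base and annotation build are not given in the sources used here. Columns were matched to strains by name, and 0 value columns were left unused. After removal of 190 control probe sets, 41155 were used as deposited. Precision is set by how many arrays there are and by their background. The table holds no scan date or batch.

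limma 3.58.1 in R 4.3.3 (lmFit and eBayes, 1 gene as a continuous covariate, two-sided) was fitted across all other probe sets over the 35 BXD strains with Benjamini-Hochberg adjustment and a threshold of 0.05. Pearson's r and Spearman's rho had 100000 permutations in Python 3.11.15. p-values measure spread between strains, array error included. The *Lep* fit was tested on simulated data with independent noise in each probe set, so effects shared between probe sets were not covered. A list gene with several probe sets is given by its brightest one. Of 198 genes in the lists, 195 were found. The 9 genes, the lists and the tests were chosen with earlier results of these data known. Named are the 9 genes and *Lep*, up to 4 genes of a list with the highest r, the 3 genes most like each of the 9 and those nearest to *Lep*. *Ucp1*, *Hoxc8* and *Hoxc9* were named after their values were seen.

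Alternatives were both parents included, quantile normalization (which moved values by at most 0.175 units), centring on the median, marker lists or the first principal component as covariates, removal of dim probe sets, ranks, a threshold of 0.01, the 2 farthest strains left out, and each strain left out in turn. The brown fat list and *Csf1r* as covariates, and list counts without BXD61, were added after seeing the data.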

Additional observations from a re-analysis of the deposited data

How the results depend on the processing

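All slopes of the 9 genes on *Lep* kept their sign under the settings run, and 366 of 428 single-gene results stayed on their side of the threshold, with 62 losing the call. The number of genes called with *Lep*, 8 of 9, was 5 with the first principal component as a covariate (*Emr1*, *Csf1r* and *Ccr2* lost), 0 with the white fat list, 0 of 8 with *Csf1r*, 4 at a threshold of 0.01 and 3 without the 2 strains farthest from the median. It ran from 4 to 8 when each strain was left out, with 4 without BXD61 and 7 or 8 without any other. The 2008 transcripts called with *Lep* became 758 with the white fat list, 347 with *Csf1r*, 818 at a threshold of 0.01 and 1242 without the 2 farthest strains, and 1415 to 2203 when each strain was left out. The lowest of these, 1415, was without BXD69, and 1457 were left without BXD61. Pairs called, 21 of 36, were 14 of the 15 pairs left when dim probe sets were removed and otherwise 15 to 23 over the settings run. *Mrc1* with *Cd163* was lost under quantile normalization and median centring, among others. The median range of the 9 genes, 1.84 units, was 1.08 between the 5th and 95th percentile of strains and 1.40 without BXD61. No paired analysis was possible because each group is 1 strain with 1 array, whose replicate number of 1 pairs nothing. The array background limits *Itgax*, *Cd163* and *Ccr2*.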
